A study of Mus musculus with 4 samples.

Results

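Keratin transcripts were examined in sorted mouse melanocyte stem cells, which renew the pigment cells of the hair follicle. All rows of the count tables whose gene name is Krt followed by a number, with or without the letter a or b, were taken, which gave 51 of 27933 genes. The stressed group (n = 2) came from mice injected with RTX (resiniferatoxin, a plant compound that activates pain-sensing nerves) and the control group (n = 2) from mice given saline, and cells of both groups were collected by fluorescence-activated sorting. Per the labels, harvest followed the RTX injection by 12 h. Genotype, strain, age and the markers of the sort are not given in the sources used here, nor is it stated whether the libraries of a group came from separate animals, so p-values reflect only how far these libraries differ, which may be technical.

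Keratins are the intermediate filament proteins of epithelial cells. A filament forms only when an acidic type I keratin pairs with a basic type II keratin, and each epithelial layer uses its own pairs, so single keratins serve as markers of epithelial layers. In skin, Krt5 and Krt14 pair in the basal layer, Krt1 and Krt10 in the layers above it, Krt25 to Krt28 and Krt71 to Krt74 in the inner root sheath that guides the growing hair, and the hair keratins in the shaft itself. Melanocytes are not epithelial, and their own cytoplasmic filament is built from vimentin, the product of Vim.

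The 4 libraries held between 9273652 and 11854280 counts over genes. Summed over 9 melanocyte markers such as Dct and Pmel, the level was 40033 and 37418 CPM (counts relative to the TMM-scaled library total) in stressed libraries 1 and 2, against 22930 and 21866 CPM in control libraries 1 and 2, and no marker was at 0. Markers of fibroblasts summed to between 6.11 and 23.5 CPM per library, those of immune cells to between 5.54 and 40.0 CPM, and those of endothelial cells to between 2.64 and 3.10 CPM. Of the 6 fibroblast markers Lum had no count in any library, while Dcn had 161 and 83 counts in stressed cells, against 2 and 113 counts in control cells. Of the 5 endothelial markers Cdh5 had no count in any library, while Vwf had 32 and 19 counts in stressed cells, against 1 and 26 counts in control cells. Keratins took 0.956% and 0.842% of all counts in the stressed libraries, against 2.58% and 1.52% in the controls.

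Both stressed libraries held less keratin RNA in sum than either control, but the classes did not share 1 direction. Over the 51 genes the sum was 9540 and 8503 CPM in stressed cells, against 25624 and 15302 CPM in control cells, and the log2 ratio of the group means was -1.18. The exact two-sided permutation test over the 4 libraries gave p = 0.3333, the smallest that 2 against 2 allows. Keratins of the basal layer, the suprabasal layers and the upper follicle, which hold most keratin reads, were lower in stressed cells, and so were the scarce hair keratins, whereas the scarce keratins of the inner root sheath and companion layer were higher in sum. The lower sum depended in part on control library 1, since the log2 ratio was -0.76 without it. In such bulk libraries, fewer cells of a type and less RNA per cell cannot be told apart.

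**Figure D1:**
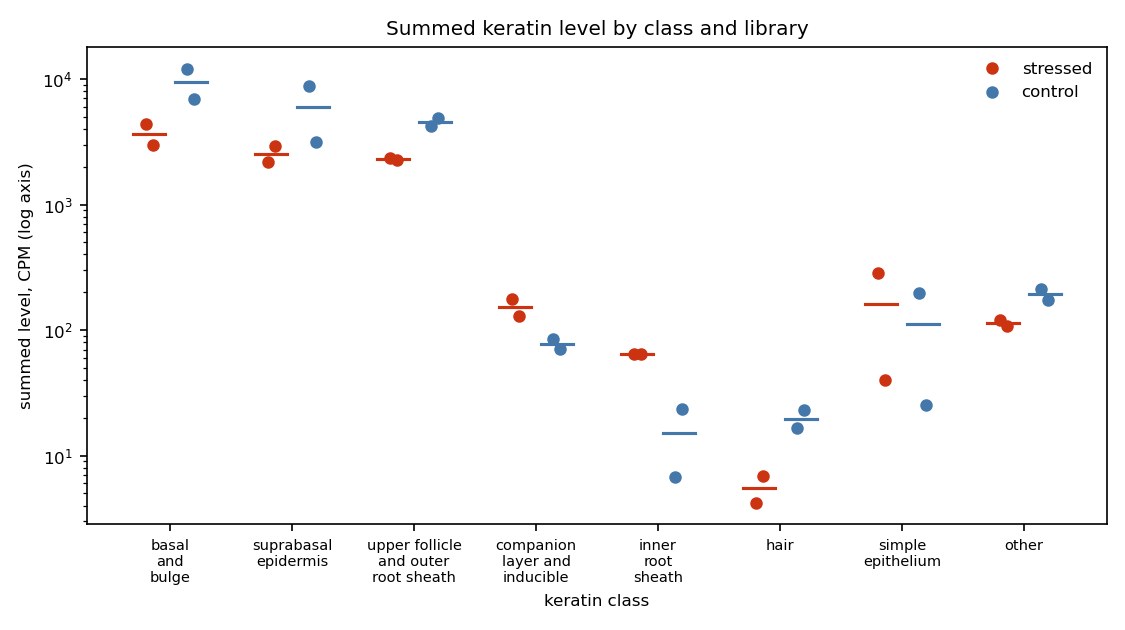
Summed level of each keratin class in CPM on a log axis, with 1 point per library, stressed left of control, and a bar at the group mean. The inner root sheath class stands at 63.9 and 64.9 CPM in stressed libraries against 6.75 and 23.5 CPM in controls, while the basal and bulge class stands lower in both stressed libraries.

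Detection was broad, and 7 keratins had no count in any library. At least 10 counts were found for 27 keratins in each stressed library, against 28 and 30 keratins in control libraries 1 and 2. All 4 members of the companion layer class and 5 of 8 inner root sheath keratins reached 10 counts in each stressed library, whereas in the controls these numbers were 3 of 4 in both and 2 and 5 of 8. Hair keratins reached 10 counts for 3 of 14 members in each stressed library and for 5 of 14 in each control. The genes at 0 throughout were Krt9, Krt74, Krt33b, Krt34, Krt36, Krt40 and Krt222, and a count of 0 allows up to 3 counts, or between 0.254 and 0.321 CPM, for counting error only.

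After the low-count filter 28 keratins could be tested, and no untested keratin had more than 28 counts in a library. Krt6b met the minimum in the stressed libraries alone and Krt24 in the controls alone, so that each had to differ to be tested. Krt8, Krt18, Krt19, Krt25, Krt27, Krt71 and Krt73 met it in 2 stressed libraries but in 1 control library only. These genes were therefore kept only with the help of the stressed group. The edgeR quasi-likelihood test called 0 of the 28 keratins, and 0 of all 13348 genes (0%), at an adjusted p below 0.05. At an unadjusted p below 0.05, 10 keratins were lower and 5 higher by edgeR, where 7.6% and 5.17% of all genes were. Limma-voom likewise called 0 keratins, with 9 lower and 6 higher at an unadjusted p below 0.05, where 7.14% and 5.6% of all genes were. The DESeq2 Wald test called 9 of 27 keratins, against 4.5% of all genes. Of these, 6 were lower, against 2.72% of all genes, and 3 higher, against 1.78% of all genes. The 3 were Krt6b, Krt71 and Krt25, each kept only with the help of the stressed group, so their count is no support. In 11 of 28 keratins both stressed libraries lay below both controls, against 22.9% of all genes, and in 6 of 28 they lay above, against 21.8%. The median log2 fold change over the 28 was -0.04, beside -0.01 over all tested genes, because 14 values were negative and 14 positive. Log2 fold changes below, stressed over control, are edgeR's with their standard error (SE), and "called", "rose" and "fell" refer to DESeq2.

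**Figure D2:**
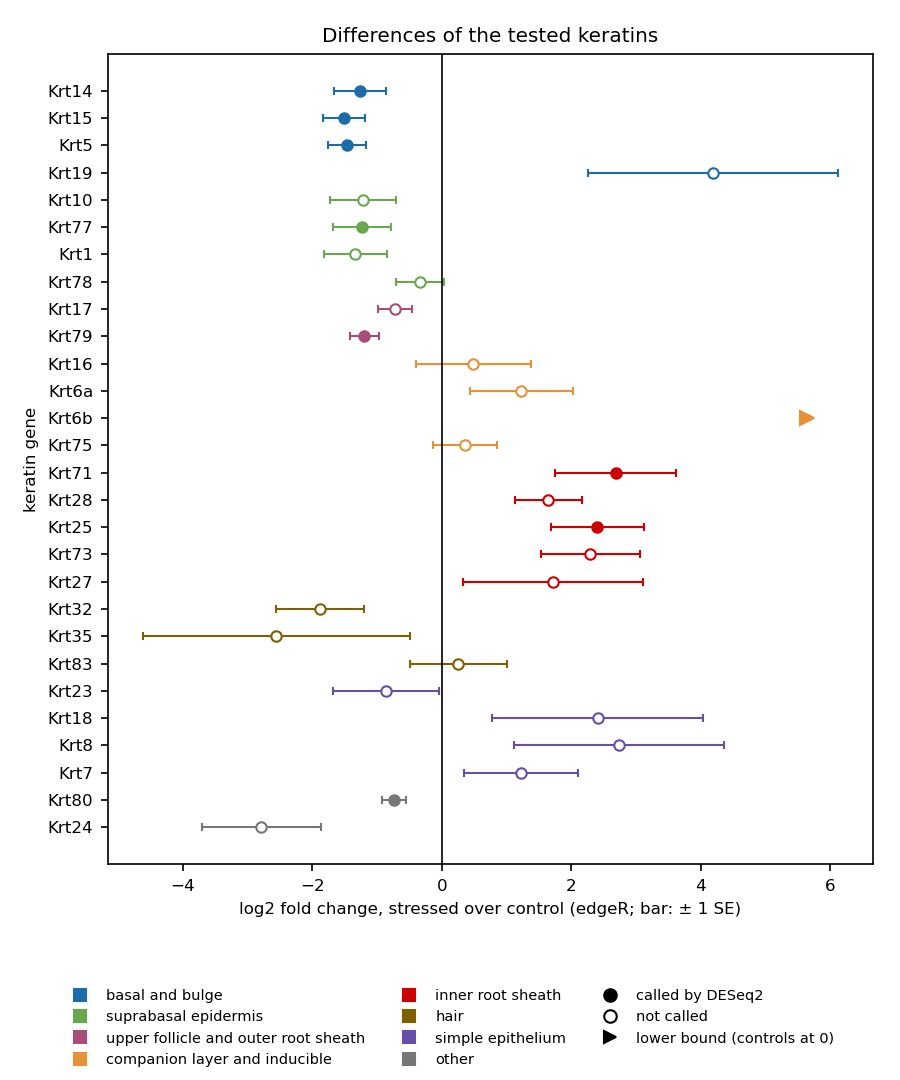
Log2 fold change of each tested keratin, stressed over control, from edgeR with bars of 1 SE, ordered and coloured by class. Filled points mark the 9 keratins called by DESeq2, and the arrowhead for Krt6b is a lower bound of 5.64, since both controls had no count.

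The calls changed with the library left out. Without stressed library 2, the edgeR values were -1.33 for Krt5, -1.27 for Krt15 and -1.11 for Krt79. With all libraries they were -1.46, -1.51 and -1.20. The part of the smaller number of libraries in the lost calls was not tested. Krt6b met the filter's minimum in the stressed libraries alone and had no control count, so its repeated call is no support. DESeq2 again called 5 of the 9 keratins without stressed library 1, 1 of 9 without stressed library 2, 5 of 9 without control library 1 and 9 of 9 without control library 2. Krt6b was called in all 4 of these fits, and Krt5, Krt15 and Krt79 in 3 of 4, each being lost without stressed library 2. In total 5, 1, 8 and 14 keratins were called in the same 4 fits, against background shares of 1.14%, 0.382%, 3.65% and 6.14% of all genes. Of the 5 keratins called without stressed library 1, 4 were lower (0.843% of all genes) and 1 higher (0.302%). The single keratin called without stressed library 2 was higher (0.114% of all genes) and 0 were lower (0.268%). Of the 8 called without control library 1, 4 were lower (1.55%) and 4 higher (2.09%), and of the 14 called without control library 2, 9 were lower (3.63%) and 5 higher (2.51%).

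EdgeR, which called none with all 4 libraries, called keratins in 3 alternative fits. Without control library 1 it called 11 of 31 keratins (4.52% of all genes), 4 lower (2.33%) and 7 higher (2.2%). Without control library 2 it called 14 of 32 keratins (5.34% of all genes), 9 lower (3.71%) and 5 higher (1.63%). With no filter beyond 1 count it called 15 of 44 keratins (4.02% of all genes), 7 lower (2.67%) and 8 higher (1.35%). DESeq2 with the replicate number as a block called 9 of 27 keratins (3.71% of all genes), 4 lower (2.25%) and 5 higher (1.47%), although the labels do not say that the numbers pair the libraries. Krt6b, Krt77 and Krt80 were not among them, whereas Krt19, Krt8 and Krt18 were, at DESeq2 log2 fold changes with the block of 4.18, 2.42 and 2.24. Their DESeq2 adjusted p values were 2.98e-12, 4.52e-05 and 8.83e-05 with the block, against 0.58, 0.728 and 0.802 without it. The values with the block hold only if the label numbers pair the libraries. In the headers the stressed libraries are numbered 2 and 3 and the controls 1 and 2.

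Among basal and bulge keratins, the 3 abundant members fell by similar amounts. Krt5 (chromosome 15, 101707070-101712891, mm10), the type II keratin of basal keratinocytes, stood at 1002 and 833 CPM in stressed cells, against 3104 and 1949 CPM in control cells. Krt14 (chromosome 11, 100203162-100207548), its type I partner, stood at 1769 and 1149 CPM in stressed cells, against 4645 and 2326 CPM in control cells. Krt15 (chromosome 11, 100131758-100135928), a type I keratin enriched in bulge stem cells, stood at 1453 and 1024 CPM in stressed cells, against 4326 and 2713 CPM in control cells. In all 3 both stressed libraries lay below both controls, as in 22.9% of all tested genes, and control library 1 was the highest. The log2 fold changes were -1.46 for Krt5 (SE 0.30), -1.26 for Krt14 (SE 0.40) and -1.51 for Krt15 (SE 0.33), with DESeq2 adjusted p values of 1.31e-05, 0.0112 and 3.39e-05. The edgeR adjusted p values were 0.151, 0.285 and 0.171. The Krt14 value was -0.66 without control library 1, and its call was lost there and without stressed library 2.

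Krt19, a type I keratin found in the bulge as well as in simple epithelia, did not follow the other members of its class. It had 1367 and 20 counts in stressed libraries 1 and 2, against 68 and 1 counts in control libraries 1 and 2. Its level was 128 and 1.82 CPM in stressed cells, against 7.28 and 0.08 CPM in control cells, so that stressed library 1 stood far above the rest, and the groups overlapped. It was called by DESeq2 with the replicate block but not without it, and its edgeR value of 4.19 (SE 1.93) turned to -0.999 without stressed library 1.

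Suprabasal keratins were lower mainly against control library 1. Krt10 (chromosome 11, 99385254-99389364), the type I keratin of differentiating epidermis, stood at 980 and 1335 CPM in stressed cells, against 4038 and 1350 CPM in control cells. Krt1 (chromosome 15, 101845428-101850786), its type II partner, stood at 366 and 533 CPM in stressed cells, against 1677 and 590 CPM in control cells. Krt77 (chromosome 15, 101858732-101869705), a type II keratin related to Krt1, stood at 786 and 964 CPM in stressed cells, against 2971 and 1152 CPM in control cells. In each of these genes both stressed libraries lay below control library 2, stressed library 2 the closer to it, and control library 1 stood apart. Of all tested genes, 22.9% were likewise lower in both stressed libraries than in either control. Of the 3, Krt77 alone fell, with a log2 fold change of -1.24 (SE 0.45) and a DESeq2 adjusted p of 0.0317. Without control library 1 the values were -0.21 for Krt10, -0.38 for Krt1 and -0.38 for Krt77, and the Krt77 call was lost without any 1 of the libraries other than control library 2.

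The class held little else. Krt78, another type II keratin of the upper epidermal layers, stood at 47.4 and 69.7 CPM in stressed cells, against 100 and 47.7 CPM in control cells, and was not called. Krt2, a keratin of the outermost living layers, had 0 counts in both stressed libraries, against 7 and 4 counts in the controls. The suprabasal sum was 2179 and 2902 CPM in stressed cells, against 8788 and 3140 CPM in control cells, a log2 ratio of -1.23 that was -0.31 without control library 1.

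Both keratins of the upper follicle and outer root sheath were lower in each stressed library than in either control, as were 22.9% of all tested genes. Krt79 (chromosome 15, 101929332-101940324), a type II keratin of the upper follicle, stood at 1229 and 1098 CPM in stressed cells, against 2698 and 2647 CPM in control cells. It fell with a log2 fold change of -1.20 (SE 0.22) and a DESeq2 adjusted p of 6e-08, and the value lay between -1.28 and -1.11 with any 1 library left out. Krt17 (chromosome 11, 100256217-100261029), a type I keratin of the outer root sheath that is also induced on injury, stood at 1128 and 1147 CPM in stressed cells, against 1540 and 2212 CPM in control cells. Its groups did not overlap either, but it was not called, at -0.72 (SE 0.26) with a DESeq2 adjusted p of 0.0506. Its value was -0.95 without control library 1, where DESeq2 called it with an adjusted p of 0.000114, and -0.43 without control library 2, where it was not called. Here it was control library 2 that held the higher control level, unlike in the basal and suprabasal keratins.

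Krt80, a type II keratin expressed in many epithelia, fell by a smaller amount. It stood at 120 and 106 CPM in stressed cells, against 207 and 170 CPM in control cells, a log2 fold change of -0.74 (SE 0.19) with a DESeq2 adjusted p of 0.0361. Its call was lost without control library 1, stressed library 1 or stressed library 2. Krt24 had 2 and 3 counts in stressed cells, against 16 and 19 counts in control cells, and DESeq2 gave it no adjusted p. Of the other keratins that fit no skin layer, Krt4, Krt12, Krt13, Krt42 and Krt76 had at most 19 counts in any library.

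**Figure D3:**
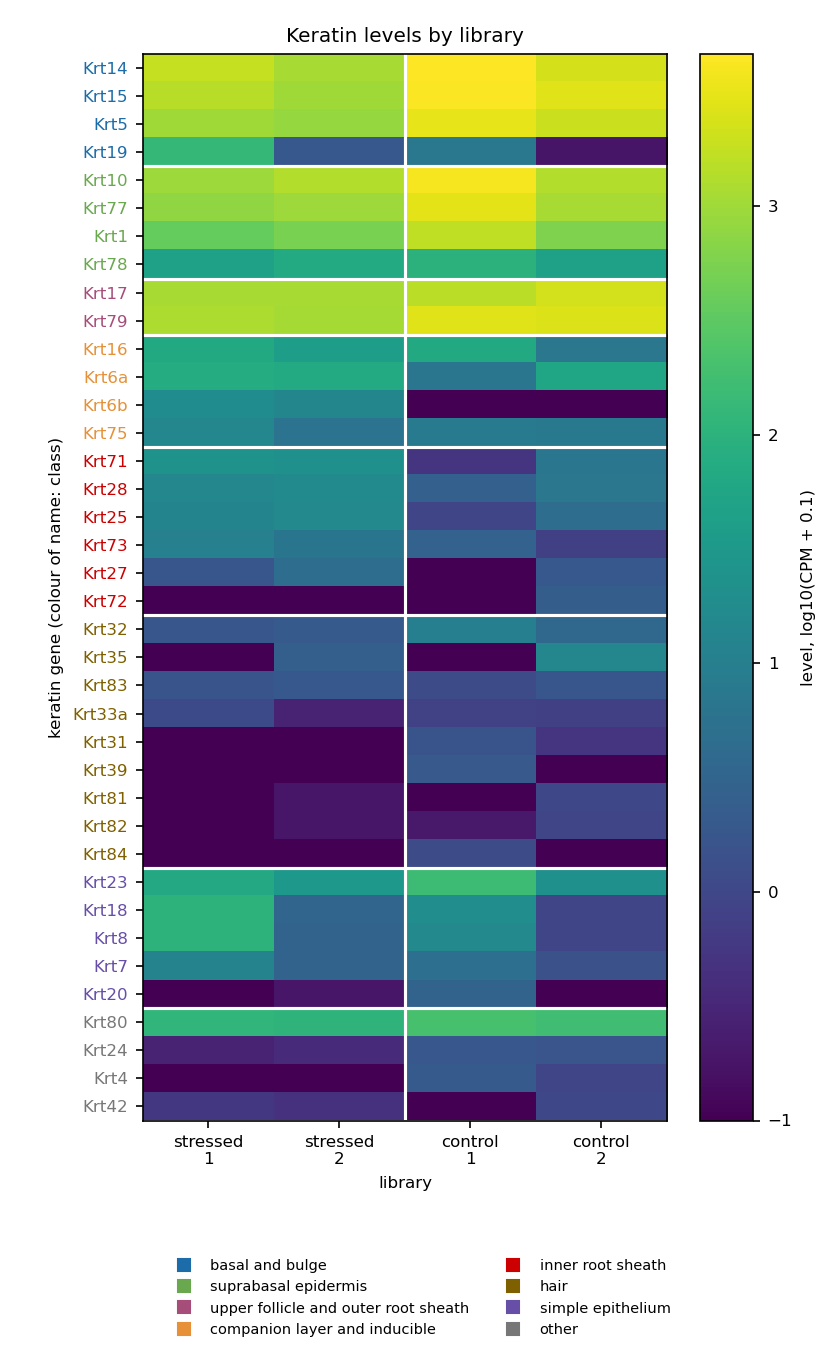
Level of each keratin with at least 10 counts in some library, as log10(CPM + 0.1), with 1 column per library and genes grouped by class. Krt5, Krt14, Krt15 and Krt79 are brightest in the controls, Krt6b is at 0 in both controls, and Krt8, Krt18 and Krt19 are highest in stressed library 1.

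The 5 inner root sheath keratins tested were each higher in stressed cells, but the filter favoured this direction. Krt25, Krt27, Krt71 and Krt73 met its minimum in 2 stressed libraries and 1 control library, whereas Krt72, present in 1 control library alone, was not tested. The shared direction of the tested members is thus no separate support. Krt71 (chromosome 15, 101733950-101743109), a type II keratin of the sheath, stood at 24.4 and 21.9 CPM in stressed cells, against 0.43 and 6.61 CPM in control cells. Krt25 (chromosome 11, 99315516-99322951), a type I keratin that can pair with it, stood at 12.9 and 15.9 CPM in stressed cells, against 0.86 and 4.49 CPM in control cells. Both rose by DESeq2, with adjusted p values of 0.0327 and 0.0281, and their log2 fold changes were 2.68 (SE 0.93) and 2.40 (SE 0.72). The edgeR adjusted p values were 0.315 and 0.261. The Krt71 call was lost without either stressed library, and the Krt25 call without either stressed library or control library 1. The values themselves stayed positive in these fits, between 1.82 and 5.72 for Krt71 and between 1.69 and 4.05 for Krt25.

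The other sheath keratins had like directions at lower counts. Krt28, a type I member, had 150 and 176 counts in stressed cells, against 24 and 82 counts in control cells. Krt73, a type II member, had 116 and 71 counts in stressed cells, against 27 and 8 counts in control cells. In both genes the stressed libraries lay above both controls, as in 21.8% of all tested genes. Neither was called, with DESeq2 adjusted p values of 0.0891 and 0.0912. Krt27 had 18 and 51 counts in stressed cells, against 0 and 22 counts in control cells, so its groups overlapped. Krt72 and Krt26 went the other way at the limit of detection, with 27 and 7 counts in control library 2 and 0 in the other 3 libraries. The class sum was nearly equal in the stressed libraries, at 63.9 and 64.9 CPM, against 6.75 and 23.5 CPM in the controls, a log2 ratio of 2.09 that was 3.25 without control library 2.

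Krt6b (chromosome 15, 101676034-101680289), a type II keratin of the companion layer and of wounded or hyperproliferative epidermis, was detected in the stressed libraries alone. It had 197 and 149 counts in stressed cells, against 0 and 0 counts in control cells. Set against 3 counts in the smaller control library, its mean of 16.0 CPM was at least 49.9-fold higher in stressed cells. It rose with a DESeq2 adjusted p of 9.68e-08, while its edgeR adjusted p was 0.115. Since it met the filter's minimum in the stressed libraries alone, it had to differ to be tested, and these p values are no support. Krt6a (chromosome 15, 101689932-101694307), its close paralog, stood at 76.4 and 71.5 CPM in stressed cells, against 6.75 and 55.8 CPM in control cells, and was not called. In the GENCODE M21 transcripts, 44.5% of the 50-base windows of Krt6b also occur in Krt6a, so the counts of the pair are given as uncertain. In control library 2 Krt6a had 659 counts beside 0 for Krt6b.

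The remaining companion layer and inducible keratins overlapped between groups. Krt16, the type I partner of Krt6a in injured epidermis, stood at 68.1 and 38.7 CPM in stressed cells, against 69.4 and 7.03 CPM in control cells. Its value of 0.49 (SE 0.89) was -0.38 without control library 2, and 37.6% of its 50-base windows occur in transcripts of other genes. Krt75, a type II keratin of the companion layer, stood at 14.5 and 6.0 CPM in stressed cells, against 8.25 and 7.71 CPM in control cells. Summed over the 4 members the level was 177 and 130 CPM in stressed cells, against 84.4 and 70.6 CPM in control cells.

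Hair keratins were scarce in every library. Krt32, a type I keratin of the hair cuticle, had 18 and 22 counts in stressed cells, against 94 and 43 counts in control cells. Krt35, a type I keratin of the growing hair shaft, had 0 and 27 counts in stressed cells, against 0 and 171 counts in control cells. Its presence thus differed within each group, and its sign turned without control library 2, at 6.68 against -2.55 with all libraries. Krt83 had between 10 and 20 counts in every library. The summed class stood at 4.22 and 6.82 CPM in stressed cells, against 16.5 and 22.9 CPM in control cells. DESeq2 called 0 of its 3 tested members, against 4.5% of all genes. By edgeR 1 of the 3 was lower at an unadjusted p below 0.05, where 7.6% of all genes were.

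Simple epithelial keratins varied more within each group than between the groups. Krt8 (chromosome 15, 101996711-102004342), the type II keratin of single-layered epithelia, stood at 103 and 3.0 CPM in stressed cells, against 15.3 and 0.85 CPM in control cells. Krt18 (chromosome 15, 102028216-102032026), its type I partner, stood at 103 and 3.18 CPM in stressed cells, against 19.5 and 0.85 CPM in control cells. In both genes library 1 of each group was high and library 2 low, and the same order held for Krt7, Krt19 and Krt23. Krt8 and Krt18 were called by DESeq2 with the replicate block but not without it, at edgeR values of 2.73 (SE 1.62) and 2.41 (SE 1.63), and both turned negative without stressed library 1, at -1.41 and -1.66. The Krt8 count is uncertain, since 29.7% of its 50-base windows occur in transcripts of other genes, among them a pseudogene. Summed over the 5 members, the level was 285 and 39.8 CPM in stressed cells, against 198 and 25.2 CPM in control cells, and the log2 ratio of 0.54 ranged between -1.49 and 2.69 with 1 library left out. Krt8, Krt18 and Krt20 are also keratins of Merkel cells, and Krt20 had 0 and 1 counts in stressed cells, against 28 and 0 counts in control cells. The 6 other Merkel cell markers summed to 1.6 and 0.55 CPM in stressed cells, against 6.53 and 3.39 CPM in control cells. Sox2, Isl1 and Chga were at 0 in both stressed libraries and in control library 2, while Atoh1 had 5 and 6 counts in stressed cells, against 19 and 0 counts in control cells. Syp had 8 and 0 counts in stressed cells, against 10 and 40 counts in control cells, and Piezo2 had 4 counts in stressed library 1 and 0 in the rest. The part of Merkel cell RNA in the Krt8 and Krt18 values was not tested.

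In the abundant pairs, the ratio of the partners varied less between libraries than their levels did. Counted per kilobase of exon, Krt5 stood at 0.454 and 0.582 of the Krt14 level in stressed cells, against 0.536 and 0.673 in control cells. The ratio of Krt1 to Krt10 was 0.320 and 0.342 in stressed cells, against 0.356 and 0.374 in control cells. That of Krt8 to Krt18 was 0.771 and 0.731 in stressed cells, against 0.609 and 0.776 in control cells, while the Krt8 level itself ranged from 0.85 to 103 CPM over the 4 libraries. The ratio of Krt71 to Krt25 was 1.73 and 1.25 in stressed cells, against 0.455 and 1.34 in control cells, the low value resting on 4 and 8 counts. That of Krt6a to Krt16 was 0.779 and 1.28 in stressed cells, against 0.0674 and 5.51 in control cells, and so differed widely between the controls. Over all members, type I keratins stood at 1.97 and 1.69 times the type II level per kilobase in stressed cells, against 1.79 and 1.69 times in control cells.

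Basal, suprabasal and upper follicle keratins supplied most keratin reads in every library. Basal and bulge keratins made up 45.6% and 35.4% of keratin counts in stressed cells, against 47.2% and 45.7% in control cells. Suprabasal keratins made up 22.8% and 34.1% in stressed cells, against 34.3% and 20.5% in control cells, and the upper follicle and outer root sheath class 24.7% and 26.4% in stressed cells, against 16.5% and 31.8% in control cells. In both of these classes the stressed values lay between those of the controls. The share of the companion layer class was 1.86% and 1.53% in stressed cells, against 0.33% and 0.46% in control cells, and that of the inner root sheath class was 0.67% and 0.76% in stressed cells, against 0.03% and 0.15% in control cells. Of the 8 classes, these and the class of other keratins, at 1.27% and 1.26% in stressed cells against 0.82% and 1.13% in control cells, had a higher share in each stressed library than in either control.

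Other genes of keratinocytes had a lower summed level as well. Summed over 58 such genes that are not keratins, the level was 10480 and 8910 CPM in stressed cells, against 20411 and 12531 CPM in control cells. The ratio of the keratin sum to this sum was 0.910 and 0.954 in stressed cells, against 1.26 and 1.22 in control cells. This is a difference of -0.41 on the log2 scale, and the groups did not overlap. The sum includes Cdh1, Dst and Plec, with log2 fold changes of -0.03, 0.01 and 0.06, so the difference depends on the genes chosen. It was not computed without these genes. Of 13 genes of desmosomes and junctions, DESeq2 called 6 lower (Dsp, Jup, Perp, Pkp1, Pkp3 and Dsc3) and 0 higher, where it called 2.72% of all genes lower and 1.78% higher. Among them were Perp, a desmosome gene, at 1055 and 841 CPM in stressed cells against 2754 and 1238 CPM in control cells, and Dsp, the keratin anchor desmoplakin, at 270 and 259 CPM in stressed cells against 834 and 359 CPM in control cells. Sfn, a 14-3-3 protein gene of stratified epithelia, was second in level per kilobase in that list and was not called. All 13 values of the list were negative, but those of Cdh1 and Dsg3 were near 0, at -0.03 and -0.004. Cdh1 stood at 1147 and 1239 CPM in stressed cells, against 1268 and 1171 CPM in control cells. Of 12 basal layer and hemidesmosome genes, Trp63 and Lamb3 fell and the other 10 were not called, among them Col17a1, at 400 and 239 CPM in stressed cells against 667 and 468 CPM in control cells. Of the 12 values 9 were negative and 3 positive. Trp63, the transcription factor of basal epithelia, stood at 207 and 112 CPM in stressed cells, against 336 and 356 CPM in control cells.

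The partner lists of the other layers differed among themselves. Like the lists above, they were chosen with earlier results of these data known, so the shares called in them are no independent support. Upper follicle genes had a median log2 fold change of -1.44, beside -0.01 over all tested genes. Against the same 2.72% of all genes lower and 1.78% higher, which also apply to the lists that follow, DESeq2 called 6 of 8 lower (Defb6, Cst6, Lrig1, Sostdc1, Gata6 and Atp6v1c2) and 0 higher, with the defensin gene Defb6 at 72.8 and 44.6 CPM in stressed cells against 164 and 150 CPM in control cells. Of 16 suprabasal and cornified envelope genes, Dsg1a, Ppl and Casp14 fell and 0 rose, while the most abundant, Krtdap, was at 652 and 706 CPM in stressed cells against 2088 and 615 CPM in control cells. That list's median of -0.75 was 0.26 without control library 1. Of 9 tested inner root sheath and hair shaft genes, Gata3 and Tchh fell and 0 rose. The median of that list was -0.01, with 5 values negative and 4 positive. Both stressed libraries lay below both controls in 4 of the 9, against 22.9% of all genes. In 3, Lef1, Msx2 and Trps1, they lay above, against 21.8% of all genes. Tchh, which encodes trichohyalin, a matrix protein that cross-links inner root sheath keratins, stood at 5.54 and 4.55 CPM in stressed cells, against 26.6 and 27.4 CPM in control cells. Its direction was thus opposite to that of the sheath keratins Krt71 and Krt25. Vim, at 2372 and 3268 CPM in stressed cells against 1385 and 1567 CPM in control cells, rose, as did Nes, the gene of the filament protein nestin, at 8.92 and 13.2 CPM in stressed cells against 3.64 and 2.71 CPM in control cells. The part of differing keratinocyte RNA between libraries in the keratin values was not tested.

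**Figure D4:**
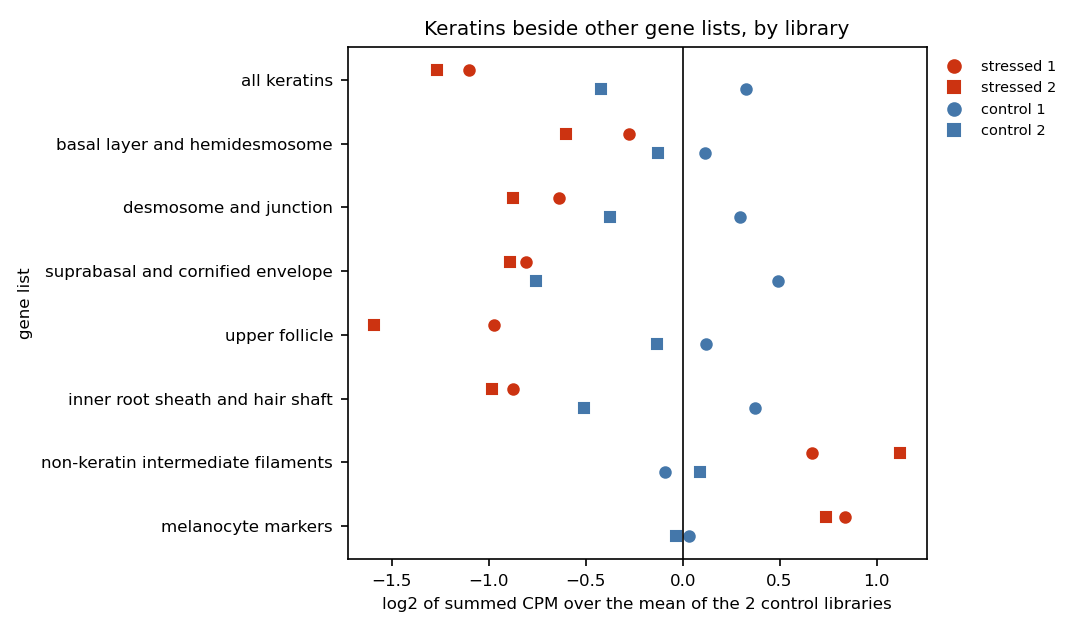
Log2 of the summed CPM of each gene list over the mean of the 2 control libraries, with stressed libraries drawn above control libraries in each row. Both stressed libraries lie left of both controls for all keratins and for each keratinocyte list, and right of them for the melanocyte and non-keratin filament lists. These are sums, and in the inner root sheath and hair shaft list 4 of 9 tested genes had a positive log2 fold change, with a median of -0.01. Of the melanocyte markers, Mitf, Sox10 and Ednrb overlapped between the groups.

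Neighbouring keratins could differ in direction. The 27 keratins on chromosome 11 are type I, and the 24 on chromosome 15 are type II apart from Krt18. Krt5, which fell, lies 21.1 kb from Krt71, which rose, and 12.8 kb on its other side from Krt6a. On chromosome 11, Krt28, higher in both stressed libraries, lies 10.35 kb from Krt10, lower in both. Krt15 and Krt19, neighbours in the same class 4.88 kb apart, had values of opposite sign.

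**Figure D5:**
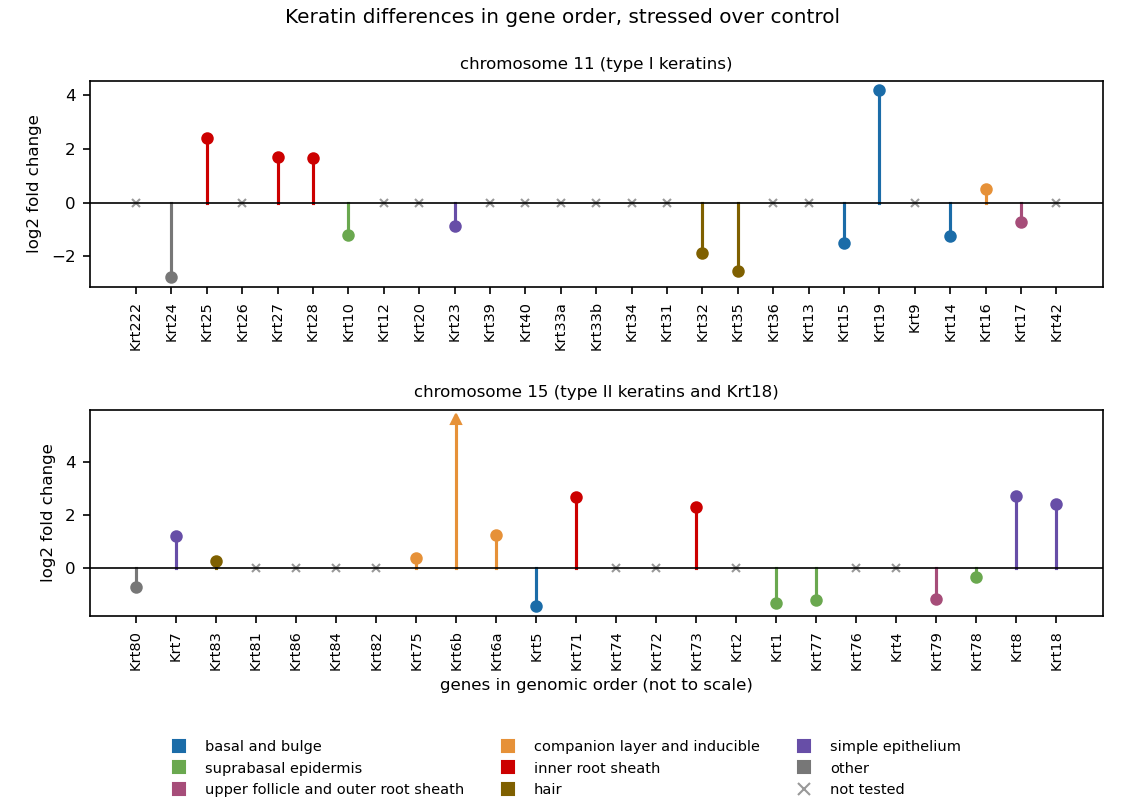
Log2 fold change of keratins, stressed over control, in genomic order on chromosomes 11 and 15, coloured by class, with crosses for untested genes and a triangle for the lower bound of Krt6b. Inner root sheath keratins point up beside Krt10 and Krt5, which point down.

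Promoters are shown for 2 abundant keratins that fell, Krt5 and Krt79, for the 2 sheath keratins that rose, Krt71 and Krt25, and for the neighbours Krt10 and Krt28. Each is 250 bases before to 50 after the RefSeq start (build GRCm38.p6), all on the minus strand, printed 5′ to 3′ as transcribed. Capitals mark matches on either strand to 4 motifs: the TATA box TATAAA, the AP-1 motif TGANTCA, the AP-2 motif GCCNNNGGC and the LEF/TCF motif CTTTGA. The windows lie at chr15:101712856-101713155 (Krt5), chr15:101940275-101940574 (Krt79), chr15:101743048-101743347 (Krt71), chr11:99322902-99323201 (Krt25), chr11:99389315-99389614 (Krt10) and chr11:99374854-99375153 (Krt28).
Krt5: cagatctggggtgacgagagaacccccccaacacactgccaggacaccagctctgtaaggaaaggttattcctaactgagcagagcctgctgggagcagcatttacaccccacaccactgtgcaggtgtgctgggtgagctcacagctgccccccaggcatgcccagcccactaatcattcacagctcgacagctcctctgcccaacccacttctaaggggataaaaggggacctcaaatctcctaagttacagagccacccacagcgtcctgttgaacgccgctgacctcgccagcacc
Krt79: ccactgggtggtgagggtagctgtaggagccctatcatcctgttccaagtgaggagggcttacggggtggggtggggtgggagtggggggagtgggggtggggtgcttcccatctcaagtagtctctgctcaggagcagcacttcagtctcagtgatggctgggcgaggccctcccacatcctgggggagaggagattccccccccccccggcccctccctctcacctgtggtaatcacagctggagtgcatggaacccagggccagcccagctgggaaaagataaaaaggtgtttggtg
Krt71: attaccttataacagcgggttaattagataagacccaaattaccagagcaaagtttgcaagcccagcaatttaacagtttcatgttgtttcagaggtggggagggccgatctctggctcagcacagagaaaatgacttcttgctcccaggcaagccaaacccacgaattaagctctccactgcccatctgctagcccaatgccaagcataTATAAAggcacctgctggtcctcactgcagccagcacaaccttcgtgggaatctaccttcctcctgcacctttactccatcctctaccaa
Krt25: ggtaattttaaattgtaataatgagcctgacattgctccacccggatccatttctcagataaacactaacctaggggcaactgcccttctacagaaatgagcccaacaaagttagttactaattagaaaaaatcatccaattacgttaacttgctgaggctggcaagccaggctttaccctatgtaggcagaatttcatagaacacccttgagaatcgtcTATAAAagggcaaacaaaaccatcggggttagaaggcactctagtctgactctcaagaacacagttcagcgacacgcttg
Krt10: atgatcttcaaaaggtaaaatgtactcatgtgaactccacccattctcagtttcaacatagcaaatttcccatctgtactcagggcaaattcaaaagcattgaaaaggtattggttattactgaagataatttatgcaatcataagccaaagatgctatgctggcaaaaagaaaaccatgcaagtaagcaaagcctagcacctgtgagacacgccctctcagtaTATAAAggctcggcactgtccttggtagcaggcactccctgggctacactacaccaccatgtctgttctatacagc
Krt28: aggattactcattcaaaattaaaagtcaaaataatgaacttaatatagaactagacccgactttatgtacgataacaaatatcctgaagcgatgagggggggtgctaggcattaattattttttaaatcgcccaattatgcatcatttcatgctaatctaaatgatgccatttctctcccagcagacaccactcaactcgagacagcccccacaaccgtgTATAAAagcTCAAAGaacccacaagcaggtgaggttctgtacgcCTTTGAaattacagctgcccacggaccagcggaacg
The exact letters TATAAA are present in Krt71, Krt25, Krt10 and Krt28, starting 40, 30, 26 and 30 bases before the RefSeq start, and absent from the windows of Krt5 and Krt79. Of the 51 keratins, 30 had a RefSeq window that starts within 50 bases of the gene start in the count tables. TATAAA was found in 16 of these 30, against 13.6% of 32851 windows of all genes, CTTTGA in 8 of 30 against 16%, GCCNNNGGC in 3 of 30 against 16.6%, and TGANTCA in 1 of 30 against 7.81%. Among tested keratins with a window, TATAAA was found in 6 of 8 with a positive log2 fold change and in 2 of 8 with a negative one, Krt10 and Krt32. The 6 are the 5 tested inner root sheath keratins and Krt8, whose matches start at -3 and -1 from the RefSeq start. Krt14, Krt15, Krt80 and Krt6b, all called, had no such window and are left out. Krt8, Krt18, Krt75, Krt23 and Krt78 changed sign with 1 library left out, so the split by direction is not firm. All matches are of letters only, and no binding was measured.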

How the data were processed

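RNA from the 4 sorted cell samples was made into libraries with the Smart-Seq V4 kit, per the labels' protocols. Counts per gene were deposited by the authors, made with featureCounts 1.6.1 over exons of an mm10 annotation at a minimum mapping quality of 30, with no strand or paired-end option, per the file headers. Trim Galore 0.4.1, STAR 2.5.3 and DESeq2 1.22.2 are listed in the submitters' processing notes. The deposited exon length per gene was used for levels per kilobase. Counting without strand leaves reads of Krt10 and Krt32 inseparable from those of Gm11940 and Gm11571, whose exons overlap theirs on the opposite strand. In the headers, stressed libraries 1 and 2 carry the numbers 2 and 3, and the numbers of the labels were used.

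Genes were filtered with edgeR's filterByExpr (minimum count 10), which kept 13348, scaled by TMM and compared by the edgeR 4.0.16 quasi-likelihood test (R 4.3.3) with group as the only term, two-sided, with Benjamini-Hochberg adjustment over all genes. The SE is the log2 fold change over the square root of F. DESeq2 1.42.0 (Wald test) and limma-voom 3.58.1 were run on the same genes. The test was tried on simulated data. Keratins were sorted by textbook knowledge into 8 classes. The members, classes and partner lists were chosen with earlier results of these data known. Text names the 10 keratins highest per kilobase, those called, and textbook pairs, and Krt19, Krt28, Krt73 and other minor members were added after their values were seen. Libraries of a group differed beyond sampling noise (chi-square per degree of freedom 17.99 in stressed, 53.99 in control) and were counted separately. Alternatives covered scaling, filter, test, replicate block and each library left out.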

Additional observations from a re-analysis of the deposited data

How the results depend on the processing

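By edgeR the number of genes called, 0, was 589 with DESeq2, 760 with no filter beyond 1 count, and between 0 and 739 with 1 library left out. The number of keratins called, 0, was 9 with DESeq2 and 15 with no filter beyond 1 count, and between 0 and 14 with 1 library left out. It stayed at 0 with limma-voom, DESeq2 size factors, upper-quartile scaling and the filter of at least 5 CPM. DESeq2 with 1 library left out, added after seeing the data, called between 47 and 800 genes and between 1 and 14 keratins. In such fits the single library left in a group has no spread of its own and takes that of the other pair. The replicate block kept the edgeR counts at 0, and with it DESeq2 called 486 genes and 9 keratins. The labels do not pair the libraries, and deviations of same-numbered libraries had a correlation of 0.173 across genes, which is only a hint.

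With 1 library left out, the median keratin log2 fold change ranged between -1.05 and -0.017 (34 keratins were tested at the low end, without stressed library 1). Beside -0.04 in 28 keratins, it was 0.35 in the 23 with at least 5 CPM and -0.80 in the 44 with no filter beyond 1 count, so its sign depended on which scarce keratins were kept. The summed keratin log2 ratio ranged between -1.51 and -0.76, that of the suprabasal class between -1.79 and -0.31, that of the inner root sheath class between 1.46 and 3.25, and that of the simple epithelial class between -1.49 and 2.69. The ratio of keratins to partner genes, -0.41, was -0.48 against basal and junction genes alone, and both sets include Cdh1, Dst and Plec. Of 28 tested keratins 18 kept their direction under every alternative run. With 1 library left out, Krt7, Krt8, Krt18, Krt19 and Krt75 reached -0.12, -1.41, -1.66, -0.999 and -0.41, Krt23 and Krt78 reached 1.14 and 0.31, Krt16 and Krt83 reached -0.38 and -0.017, and Krt35 reached 6.68. Their other ends were 2.45, 5.96, 5.97, 9.42 and 0.87 for the first 5, -1.67 and -0.77 for the next 2, 2.94 and 0.63 for the next 2, and -9.26 for Krt35. The cause was not tested.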
